A study of Mus musculus with 6 samples.

Results

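The genes described here are the deacetylases other than class I and the subunits of the corepressor complexes in which histone deacetylases work. They are 43 of the 19616 genes in the deposited RNA-Seq table, taken by symbol: the class II and class IV deacetylases, the sirtuins, and subunits of NuRD, Sin3, CoREST with REST, MiDAC, MIER and NCoR complexes. The rule goes by symbol and uses no expression value, although earlier results of these data were known when it was set. RNA came from jejunal intestinal epithelial cells (IEC), enriched by EDTA treatment, of mice aged 3 months: 3 wildtype control mice (C1, C3 and C3-3) and 3 mice of the genotype villin-Cre Hdac1-/-; Hdac2-/- (H1, H5 and H9), with 1 library per mouse. The villin promoter drives Cre in the intestinal epithelium from development on, so cells of these mice that do not express villin-Cre keep both genes, and the mice had lived with the deletion up to the time of sampling. The mice were of a mixed C57BL/6J, 129SV and CD1 background. The comparison asks how the RNA of the other deacetylases and of the partner proteins of HDAC1 and HDAC2 differs once both enzymes are removed from the epithelium.

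Histone deacetylases remove acetyl groups from lysines of histones and other proteins, which usually goes with lower transcription of the genes nearby. The zinc-dependent enzymes fall into class I (Hdac1, Hdac2, Hdac3 and Hdac8), the signal-regulated class IIa, the largely cytoplasmic class IIb and class IV, while the sirtuins need NAD as a cosubstrate and so respond to metabolism. HDAC1 and HDAC2 act as the catalytic core of NuRD, Sin3, CoREST, MiDAC and MIER complexes, whose other subunits bind chromatin, transcription factors or methylated DNA, and HDAC3 is the enzyme of the NCoR complex. Many of these subunits exist as paralogs that replace each other in the same seat of a complex. Class I deacetylases are inhibited by butyrate, a short-chain fatty acid made by the microbiota of the intestine.

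The libraries held 36111035 to 65902344 counted reads each. Levels are given as CPM, the counts scaled to a common library size with library total and TMM factor, in the order C1, C3, C3-3 for control and H1, H5, H9 for Hdac1/2-deleted mice, and as mean ± SD (n = 3 mice). Levels of different genes are compared as CPM per kb of exons, while marker sums and paralog differences use CPM without gene length. At these depths 3 counts, the smallest level taken as detectable, are 0.0405 to 0.079 CPM, which covers counting error only. Hdac1 was at 39.1, 34.5 and 48.9 CPM in control and at 3.97, 2.53 and 4.81 CPM in Hdac1/2-deleted mice, or lower by 10.8-fold (log2 fold change -3.43, standard error 0.26, adjusted p = 2.9e-05). Hdac2 was at 32.9, 23.6 and 26.5 CPM in control and at 26.6, 25.4 and 21.4 CPM in Hdac1/2-deleted mice, so its RNA does not check the label. A count over a whole gene also takes reads from exons outside a floxed part, and which exons were deleted is not given in the sources used here. Hdac1/2-deleted is used below as the name of the labelled group. Epithelial markers summed to 22500 to 25200 CPM in control and 18400 to 20900 CPM in Hdac1/2-deleted mice. Where 20.5% of all genes tested were called higher in the latter and 20.3% lower, 2 of 14 epithelial markers were higher and 3 lower. Of these counts, the higher genes numbered 1 without H1 or without H5, and the lower genes 1 without C3-3, without H5 or with library totals. The control libraries were not alike in other cell types. The smooth muscle genes Myh11, Des and Actg2 summed to 45.3 CPM in C1 and 34.4 CPM in C3, against 1.58 CPM in C3-3 and 0.0813 to 0.316 CPM in Hdac1/2-deleted mice, where Myh11 had 1 count in H1 and 0 in H5 and H9. They belong to a list of 11 stromal markers. Of the 9 tested, 4 were lower and 1 higher (Pdgfrb, 1.62 ± 0.829 to 13 ± 5.52 CPM), against 20.3% and 20.5% of all genes. The lower genes numbered 1 without H1 and 2 without H9. The T cell markers summed to 158 CPM in C3 and 136 CPM in C3-3, against 51.7 CPM in C1 and 36 to 67.7 CPM in Hdac1/2-deleted mice. Of 10 tested, 2 were lower (Cd3g and Cd8a) and 1 higher (Cd4, 0.649 ± 0.093 to 2 ± 0.962 CPM), against 20.3% and 20.5% of all genes. The lower genes numbered 0 without C3, C3-3, H1 or H5, 4 with DESeq2 and 6 without C1, and the higher 0 without H9. The study reports more CD3-stained T cells in mutant jejunal sections, a measure of tissue and not of enriched IEC. B and plasma cell markers summed to 62.6 CPM in C1, mostly from Jchain at 59.6 CPM, against 9.31 CPM in C3, 6.25 CPM in C3-3 and 43.7 to 61.7 CPM in Hdac1/2-deleted mice, where Cd79b was the largest part at 27.2 to 40.7 CPM. C3 was also the only library with more than a few Y chromosome reads (3082 counts on 4 genes, against 1 to 13 in the other mice). Each call named below is therefore also given without C1 and C3, and without C3 and C3-3, wherever that ends it. In cells taken as a mixture, fewer cells of a type and less RNA per cell cannot be told apart.

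In Hdac1/2-deleted IEC, 11 corepressor subunit genes stood higher and 3 lower, while 8 of the other deacetylases stood lower and none higher. A gene is said to rise or fall where edgeR's quasi-likelihood test over all genes gave a Benjamini-Hochberg adjusted p of at most 0.05. Of the 43 genes, 42 passed the filter on low counts, and 11 rose, 11 fell and 20 were not called. Over all 15618 genes tested, 40.8% were called, 20.5% as higher and 20.3% as lower, against 52.4% of the 42 genes, 26.2% in each direction. The median log2 fold change was -0.01 over the 42 genes and -0.008 over all genes. A change of at least 2-fold in addition was met by 3 genes upward (7.14%, against 12.4% of all genes) and 9 downward (21.4%, against 12.7%). For 28 of the 42 genes the 2 groups of mice were apart, 14 higher and 14 lower, where 26.7% and 26.6% of all genes did the same. Directions differed between deacetylases and complex subunits. Of the 13 tested class IIa, IIb and IV deacetylases and sirtuins, none rose and 8 fell. Of the 29 tested subunits of complexes, 11 rose and 3 fell. The 3 subunit genes that fell were Mier1, Ncor1 and Tbl1xr1, and the 11 that rose belong to NuRD, its histone chaperones, Sin3 and CoREST.

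**Figure D1:**
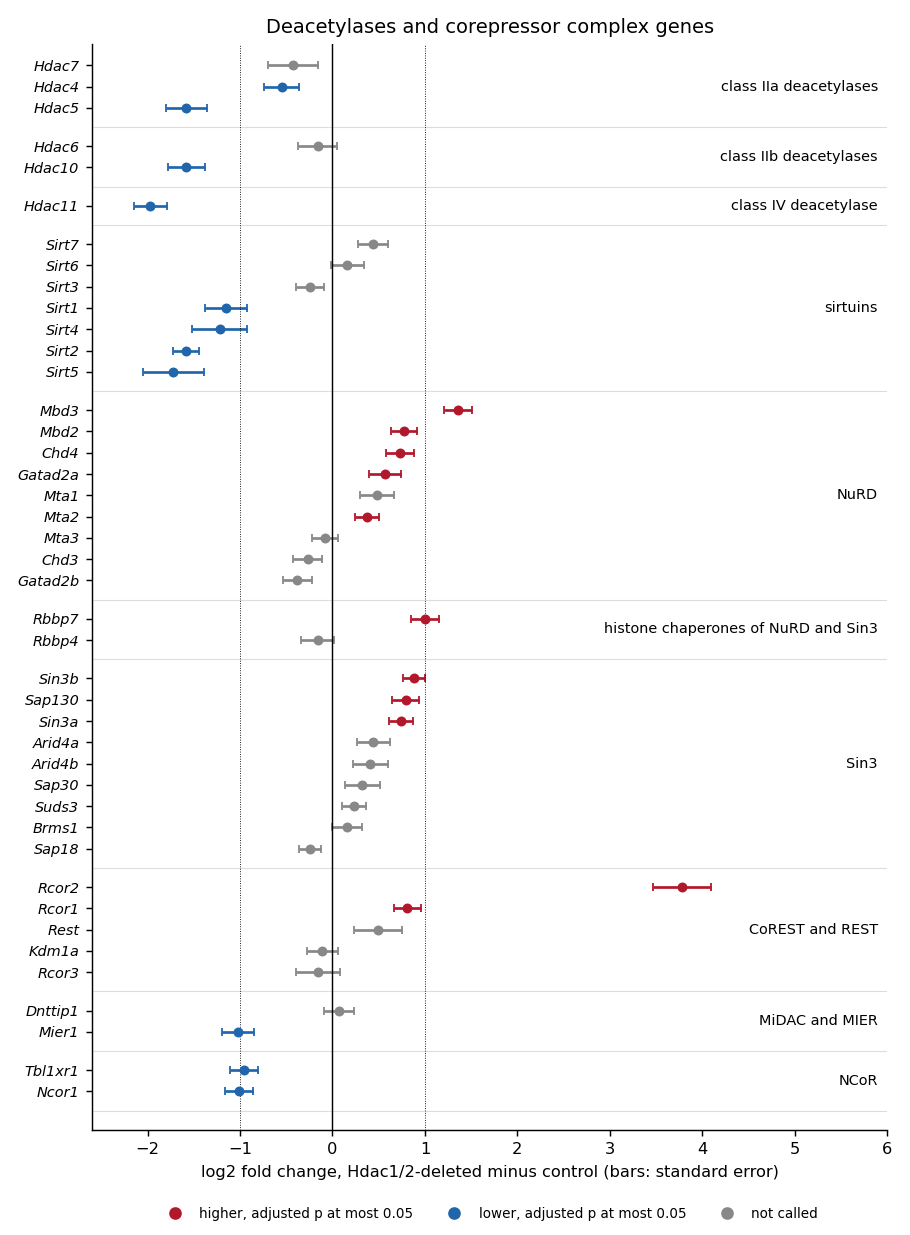
Log2 fold change of each of the 42 tested genes, Hdac1/2-deleted minus control, with its standard error, grouped by deacetylase class or complex and coloured by the call at an adjusted p of 0.05. Dotted lines mark a 2-fold change. Rcor2 stands alone at 3.78, the deacetylases reach down to -1.97 for Hdac11, and the called genes of NuRD, Sin3 and CoREST all lie to the right of 0.

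The promoters of the genes at both ends of that range are shown to give their sequence context, namely the 2 largest increases (Rcor2 and Mbd3) and the 2 largest decreases (Hdac11 and Sirt5) among called genes. Each sequence runs from 250 bases before to 50 bases after the start site, from RefSeq on GRCm38.p6, where 35 of the 43 genes have an entry. Capitals mark motifs on either strand. GGGCGG is the GC box bound by Sp1-type factors, TATAAA is the core of the TATA box, CCAAT is bound by NF-Y and CACGTG is the E-box of basic helix-loop-helix factors. A motif on the other strand stands in capitals as its reverse complement.
Rcor2, chr19:7267144-7267443, plus strand: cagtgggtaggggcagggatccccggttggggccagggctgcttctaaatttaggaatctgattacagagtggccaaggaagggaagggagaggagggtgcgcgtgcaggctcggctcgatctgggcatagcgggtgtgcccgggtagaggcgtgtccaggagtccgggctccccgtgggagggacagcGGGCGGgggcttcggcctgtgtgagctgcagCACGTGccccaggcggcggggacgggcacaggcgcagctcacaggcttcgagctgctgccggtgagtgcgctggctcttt
Mbd3, chr10:80399482-80399781, minus strand: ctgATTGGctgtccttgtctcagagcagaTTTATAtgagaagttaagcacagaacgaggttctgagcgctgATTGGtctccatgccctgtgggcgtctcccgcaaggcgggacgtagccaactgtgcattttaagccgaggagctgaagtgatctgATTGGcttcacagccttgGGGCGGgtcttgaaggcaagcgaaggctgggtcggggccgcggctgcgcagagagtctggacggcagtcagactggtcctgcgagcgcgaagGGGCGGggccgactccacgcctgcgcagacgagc
Hdac11, chr6:91156565-91156864, plus strand: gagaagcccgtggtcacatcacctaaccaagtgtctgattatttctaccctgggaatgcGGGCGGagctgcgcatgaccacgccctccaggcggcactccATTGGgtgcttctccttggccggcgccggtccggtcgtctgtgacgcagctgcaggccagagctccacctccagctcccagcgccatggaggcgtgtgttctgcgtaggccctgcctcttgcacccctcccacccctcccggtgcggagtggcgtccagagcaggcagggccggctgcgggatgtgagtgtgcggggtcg
Sirt5, chr13:43365285-43365584, plus strand: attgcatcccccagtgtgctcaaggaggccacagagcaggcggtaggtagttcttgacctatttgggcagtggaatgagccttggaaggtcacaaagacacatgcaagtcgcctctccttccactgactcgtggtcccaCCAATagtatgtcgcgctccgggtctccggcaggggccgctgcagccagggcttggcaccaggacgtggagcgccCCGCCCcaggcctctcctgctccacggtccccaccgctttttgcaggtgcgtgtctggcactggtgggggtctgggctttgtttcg

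All 4 promoters held more CpG dinucleotides than the median promoter. Rcor2 held 21 CpG, Mbd3 22, Hdac11 22 and Sirt5 15 within 300 bases, against a median of 7 over 32851 mouse promoters. Fewer CpG stood in 65.4% of promoters than in that of Sirt5, and in 75.2% to 76.9% than in the other 3. Each held at least 1 GGGCGG, a motif present in 35.7% of all promoters, and Mbd3 held 2. CCAAT stood 3 times in Mbd3 and once in Hdac11 and in Sirt5 (37.4% of promoters), TATAAA once in Mbd3 (13.6%), and CACGTG once in Rcor2 (7.2%). These are matches of letters and were not tested against binding.

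Among the zinc-dependent deacetylases outside class I, Hdac5, Hdac10 and Hdac11 fell about 3- to 4-fold, Hdac4 fell less, and Hdac6 and Hdac7 were not called. Hdac11 is the sole class IV enzyme and removes long fatty acyl groups. It was at 47.7, 52.4 and 49.3 CPM in control and at 14.4, 13.8 and 9.82 CPM in Hdac1/2-deleted mice, or 3.92-fold lower (log2 fold change -1.97, standard error 0.18, adjusted p = 6.2e-05). It changed more than any other deacetylase outside class I, from 49.8 ± 2.42 to 12.7 ± 2.51 CPM, and the groups lay far apart. Of its exons, 17.9% overlap genes of the opposite strand (Gm14573 and Gm44002), and the strand used for counting is not given in the sources used here. Hdac10, a class IIb enzyme that deacetylates polyamines, was at 9.63, 11.2 and 11.9 CPM in control and at 3.75, 3.55 and 3.64 CPM in Hdac1/2-deleted mice (log2 fold change -1.58, standard error 0.20, adjusted p = 0.00036). Its class IIb relative Hdac6, the tubulin deacetylase, was at 6.64, 7.27 and 8.81 CPM in control and at 7.49, 6.87 and 5.95 CPM in Hdac1/2-deleted mice, so that the groups overlapped (log2 fold change -0.16, adjusted p = 0.57).

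Class IIa deacetylases shuttle between cytoplasm and nucleus and bind MEF2 transcription factors. Hdac5 was at 71.0, 101 and 55.9 CPM in control and at 28.6, 25.9 and 21.9 CPM in Hdac1/2-deleted mice. The spread between control mice was wide, yet the lowest control stood above the highest Hdac1/2-deleted mouse (log2 fold change -1.58, standard error 0.22, adjusted p = 0.00068). The size of the fall varied, with a log2 fold change of -1.75 to -1.12 over all alternatives. Hdac4 was at 31.6, 36.2 and 23.5 CPM in control and at 21.2, 22.5 and 18.6 CPM in Hdac1/2-deleted mice (log2 fold change -0.55, adjusted p = 0.041). This call was lost without any 1 of C1, C3, H1, H5 and H9 (adjusted p 0.065 to 0.15), with library totals as the scale (0.20), and without either pair of control mice (0.69 and 0.10), and 22.4% of its exons overlap Gm26720 of the opposite strand. Hdac7 had a log2 fold change of -0.43 (adjusted p = 0.24), with 3.41 to 5.46 CPM in control and 3.07 to 4.03 CPM in Hdac1/2-deleted mice. Hdac9 was not tested, with 7, 3 and 0 counts in control and 10, 1 and 2 in Hdac1/2-deleted mice, at or under the floor of 3 counts in 4 of the 6 libraries. Of the MEF2 genes, Mef2d rose (log2 fold change 0.74, adjusted p = 0.0031, 70.4 ± 5.11 to 118 ± 14.9 CPM), and Mef2a and Mef2c had log2 fold changes of 0.05 and -0.30 without passing the test.

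**Figure D2:**
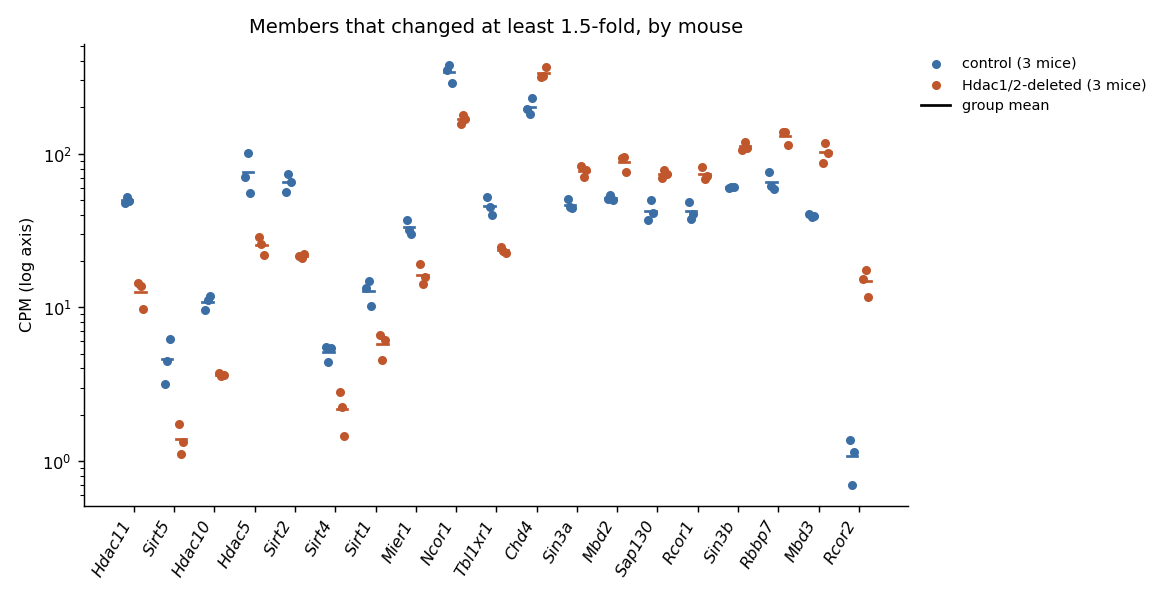
CPM in each of the 3 control and 3 Hdac1/2-deleted mice, on a log axis, for the 19 genes that were called and changed at least 1.5-fold, ordered from the largest decrease (Hdac11) to the largest increase (Rcor2), with group means as bars. In each of these genes the points of both groups are separate, which is no further result because the genes were chosen by their call. Rcor2 moves from 0.702 to 1.36 CPM in control to 11.6 to 17.4 CPM in Hdac1/2-deleted mice.

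Per kb of exons, the RNA of all zinc-dependent deacetylases together, class I included, went from 63.4 ± 2.00 CPM per kb in control to 30.8 ± 2.57 CPM per kb in Hdac1/2-deleted mice. Control mice held 61.1, 64.3 and 64.8 CPM per kb and Hdac1/2-deleted mice 33.3, 30.8 and 28.2 CPM per kb. Besides Hdac1, whose share went from 18.7% ± 3.15 to 3.60% ± 1.29, the shares of Hdac11 (20.4% ± 0.732 to 10.7% ± 1.41), Hdac10 (5.09% ± 0.398 to 3.52% ± 0.264), Hdac5 (13.7% ± 4.09 to 9.41% ± 0.48) and Hdac8 (1.97% ± 0.0592 to 1.54% ± 0.0199) were smaller in Hdac1/2-deleted mice, and that of Hdac2 was larger (9.79% ± 1.98 to 17.8% ± 0.702). Hdac3, the enzyme of the NCoR complex, made up 24.2% ± 1.79 of this RNA in control and 43.8% ± 1.41 in Hdac1/2-deleted mice, although its own level (62.2 ± 6.01 and 54.5 ± 3.59 CPM) had a log2 fold change of -0.19 (adjusted p = 0.28). Hdac8, the remaining class I enzyme, fell from 6.05 ± 0.123 to 2.29 ± 0.211 CPM (log2 fold change -1.40, adjusted p = 0.0013). With all 6 mice and TMM, no deacetylase of any class was called higher.

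**Figure D3:**
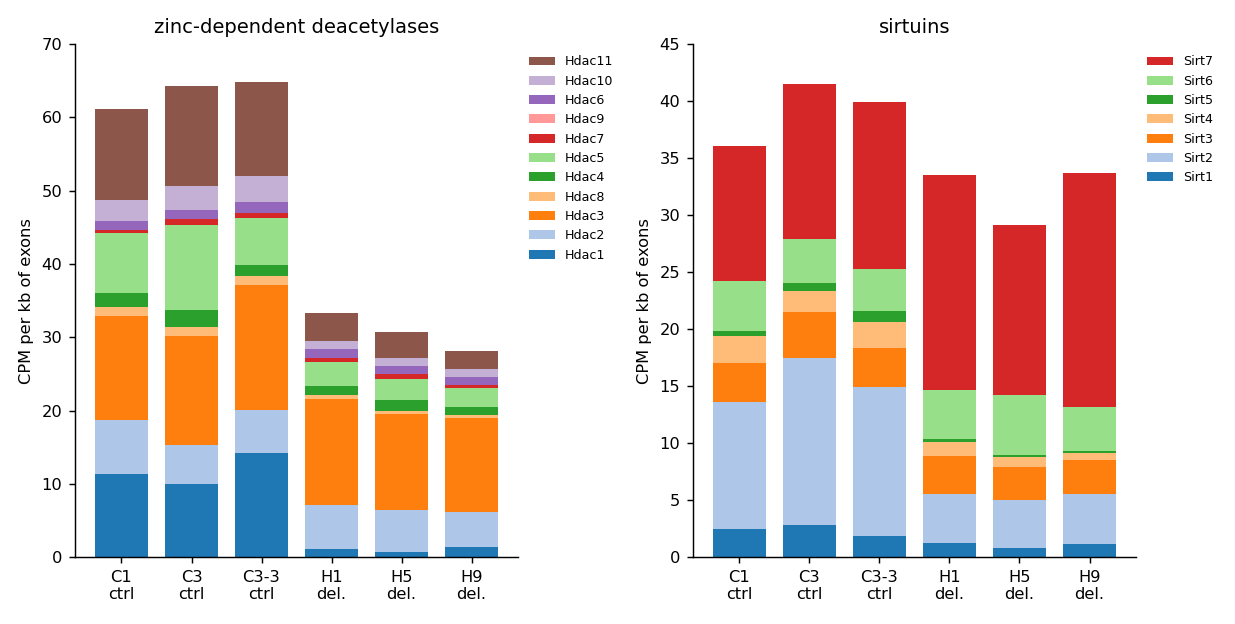
Stacked CPM per kb of exons of the zinc-dependent deacetylases (left) and the sirtuins (right) in each mouse. The zinc-dependent total is 61.1 to 64.8 in control and 28.2 to 33.3 in Hdac1/2-deleted mice with Hdac3 as its largest part, and in the sirtuins the band of Sirt2 is narrower and that of Sirt7 wider in Hdac1/2-deleted mice.

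Of the 7 sirtuins, Sirt1, Sirt2, Sirt4 and Sirt5 fell and none rose, with 12.7% of all genes falling at least 2-fold as these 4 did. Sirt2, mostly cytoplasmic and known as a tubulin deacetylase, was at 56.2, 73.8 and 65.4 CPM in control and at 21.7, 21.1 and 22.4 CPM in Hdac1/2-deleted mice (log2 fold change -1.58, standard error 0.14, adjusted p = 6.9e-05). The Hdac1/2-deleted mice were almost at the same level, 2.99-fold under the control mean. Sirt1, the nuclear sirtuin known for deacetylating p53 and PGC-1 alpha, was at 13.3, 14.9 and 10.2 CPM in control and at 6.61, 4.55 and 6.10 CPM in Hdac1/2-deleted mice (log2 fold change -1.15, adjusted p = 0.0038). Without C1 and C3 it was at -0.81 (adjusted p = 0.12).

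The mitochondrial sirtuins did not share 1 pattern. Sirt5, which removes succinyl and malonyl groups, was at 3.17, 4.45 and 6.21 CPM in control and at 1.73, 1.11 and 1.33 CPM in Hdac1/2-deleted mice (log2 fold change -1.72, standard error 0.33, adjusted p = 0.0034). Sirt4 was at 5.50, 4.39 and 5.42 CPM in control and at 2.83, 2.26 and 1.45 CPM in Hdac1/2-deleted mice (log2 fold change -1.22, adjusted p = 0.011). With 1 control mouse left, Sirt5 kept its call without C1 and C3 (-2.14, adjusted p = 0.0042) and lost it without C3 and C3-3 (-1.19, adjusted p = 0.091). Sirt4 lost its call both times, at -1.30 without C1 and C3 and -1.34 without C3 and C3-3 (adjusted p = 0.059 and 0.055). Sirt3, the main mitochondrial deacetylase, had 20.4 to 23.8 CPM in control and 17.0 to 20.1 CPM in Hdac1/2-deleted mice, without overlap, at a log2 fold change of -0.24 that did not pass (adjusted p = 0.24).

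Sirt7, the nucleolar sirtuin, had the highest mean sirtuin level per kb. In control Sirt2 was close (13.4 ± 1.37 CPM per kb for Sirt7 and 12.9 ± 1.75 for Sirt2), and in C3 Sirt2 was the larger. Sirt7 was at 61.1, 70 and 75 CPM in control and at 97.1, 76.5 and 105 CPM in Hdac1/2-deleted mice. The groups did not overlap, but H5 stood just above C3-3, and the log2 fold change of 0.44 missed the threshold (adjusted p = 0.053). It passed with library totals (0.63, adjusted p = 0.010), with DESeq2 (0.45, 0.047) and without H5 (0.56, 0.022), among others. Sirt6 had a log2 fold change of 0.16 (adjusted p = 0.52). As a share of sirtuin RNA per kb, Sirt2 was at 32.9% ± 2.25 in control and 13.5% ± 0.812 in Hdac1/2-deleted mice, while Sirt7 was at 34.1% ± 2.16 and 56.1% ± 4.81. The total went from 39.2 ± 2.76 to 32.1 ± 2.63 CPM per kb.

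Where 20.5% of all genes were higher and 20.3% lower, genes for the making and use of NAD, the cosubstrate of sirtuins, changed in both directions. Of 12 tested, 2 were higher and 5 lower. The higher genes numbered 4 without H9 or with DESeq2 and 5 with library totals, and the lower genes 3 with library totals. Qprt, which makes nicotinic acid mononucleotide from quinolinate of the tryptophan pathway, was at 0.121, 0.540 and 0.282 CPM in control and at 25.8, 54.1 and 53.4 CPM in Hdac1/2-deleted mice (log2 fold change 7.16, adjusted p = 0.00011). In control mice this amounts to 8 to 30 reads. Nmrk1, a nicotinamide riboside kinase, rose as well (log2 fold change 1.53, adjusted p = 0.00035). Naprt, which starts NAD synthesis from nicotinic acid, fell from 374 ± 69.8 to 106 ± 14.1 CPM (log2 fold change -1.82, adjusted p = 0.00012), and 11.8% of its exons overlap Eef1d on the same strand. Bst1, an NAD-consuming ectoenzyme, fell from 435 ± 46.7 to 72.3 ± 17.6 CPM (log2 fold change -2.59), and Nmnat3, the mitochondrial adenylyltransferase, from 11.5 ± 5.81 to 1.87 ± 0.919 CPM (log2 fold change -2.61). Nampt, the rate-limiting enzyme of the salvage pathway, did not pass the test (log2 fold change 0.51, adjusted p = 0.071).

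In NuRD, which joins a chromatin remodelling ATPase to the deacetylases, 5 of 9 genes rose and none fell. By the same test 20.5% of all genes rose and 20.3% fell. Mbd3, the methyl-CpG-binding-domain protein of the complex that itself binds methylated DNA poorly, was at 40.7, 38.8 and 39.3 CPM in control and at 86.6, 118 and 101 CPM in Hdac1/2-deleted mice. Its control mice were nearly equal and its 2.57-fold increase (log2 fold change 1.36, standard error 0.15, adjusted p = 0.00016) was the largest in NuRD. Mbd2, which takes the same seat and binds methylated DNA, was at 50.9, 53.7 and 50.3 CPM in control and at 94.1, 95.1 and 76.0 CPM in Hdac1/2-deleted mice (log2 fold change 0.77, adjusted p = 0.0021). Together, Mbd2 and Mbd3 amounted to 36 ± 0.498 CPM per kb in control and 78.7 ± 8.95 CPM per kb in Hdac1/2-deleted mice. Chd4, the main remodelling ATPase, had the highest mean per kb of the NuRD genes in control IEC (25.2 ± 3.01 CPM per kb), with Mta2 close (23.8 ± 1.65). Chd4 was at 196, 182 and 229 CPM in control and at 317, 319 and 366 CPM in Hdac1/2-deleted mice (log2 fold change 0.73, adjusted p = 0.0045). The increase was not called without C1 and C3 (0.56, adjusted p = 0.11).

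The other NuRD genes moved less. Gatad2a, a scaffold that links the deacetylase part to the ATPase, rose from 116 ± 20.2 to 171 ± 17.9 CPM (log2 fold change 0.57, adjusted p = 0.023), a call lost without C1, without H5 and without C1 and C3 (adjusted p = 0.056, 0.077 and 0.21). Its paralog Gatad2b had a log2 fold change of -0.38 (adjusted p = 0.091) with no overlap between groups. The MTA proteins hold the deacetylases in the complex. Mta2 rose by 1.30-fold (log2 fold change 0.37, adjusted p = 0.041), which did not pass under 7 of 15 alternatives, among them the fits without C1 and C3 (0.38, adjusted p = 0.23) and without C3 and C3-3 (0.27, adjusted p = 0.41), while Mta1 (0.48, adjusted p = 0.054) and Mta3 (-0.08, adjusted p = 0.66) were not called, and Mta1 passed under 5. Chd3, the alternative ATPase, had a log2 fold change of -0.27 (adjusted p = 0.20).

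RBBP4 and RBBP7 are closely related histone-binding proteins that sit in both NuRD and Sin3, and their genes behaved differently. Rbbp7, on chromosome X, was at 75.7, 61.2 and 58.5 CPM in control and at 138, 139 and 114 CPM in Hdac1/2-deleted mice, or 2-fold higher (log2 fold change 1, standard error 0.15, adjusted p = 0.0010). The increase lies right at the 2-fold limit, and it was below it without C3, C3-3, H1 or H5 (0.94 to 0.96), with the call kept. Its log2 fold change ranged from 0.77 to 1.19 over all alternatives. Rbbp4 was at 84.5, 60 and 64.6 CPM in control and at 73.1, 62.9 and 51.8 CPM in Hdac1/2-deleted mice, with overlap and no call (log2 fold change -0.16, adjusted p = 0.52). Of Rbbp4 exons, 18% overlap genes of the opposite strand. Rbbp7 made up 73.8% ± 1.37 of the pair per kb in control and 86.3% ± 1.05 in Hdac1/2-deleted mice.

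In the Sin3 complex, 3 of 9 genes rose and none fell, against 20.5% and 20.3% of all genes. Both scaffold genes were among the 3. Sin3a and Sin3b encode the large scaffolds that tie transcription factors to the deacetylases. Sin3a was at 50.4, 44.7 and 44.0 CPM in control and at 82.9, 70.8 and 77.9 CPM in Hdac1/2-deleted mice (log2 fold change 0.74, standard error 0.13, adjusted p = 0.0021). Sin3b was at 59.4, 60.9 and 61.0 CPM in control and at 106, 120 and 109 CPM in Hdac1/2-deleted mice (log2 fold change 0.88, standard error 0.12, adjusted p = 0.00059). The scaffolds rose side by side, so that Sin3a made up 51.1% ± 2.23 of the pair per kb in control and 48.6% ± 3.59 in Hdac1/2-deleted mice. Without C3 and C3-3 the increase of Sin3a was 0.60 and not called (adjusted p = 0.072). Sap130, a Sin3-associated subunit, was at 37.2, 49.7 and 40.9 CPM in control and at 69.2, 77.9 and 74.2 CPM in Hdac1/2-deleted mice (log2 fold change 0.79, adjusted p = 0.0027).

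The 6 other Sin3 genes were not called. Brms1, listed with the highest level per kb in the complex, was at 30.6, 40.6 and 42.0 CPM in control and at 41.3, 45.9 and 39.1 CPM in Hdac1/2-deleted mice (log2 fold change 0.16, adjusted p = 0.46). Since 79.0% of its exons are shared with AC124502.3 on the same strand, its reads are uncertain. Arid4a and Arid4b, chromatin-binding subunits, had log2 fold changes of 0.44 and 0.41 (adjusted p = 0.078 and 0.12), Sap30 had 0.32 and Suds3 0.23 (adjusted p = 0.21 and 0.19). Sap18 had -0.24 (adjusted p = 0.14), and its groups and those of Suds3 did not overlap. Arid4a passed under 3 alternatives, among them library totals (0.62, adjusted p = 0.043).

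CoREST, in which a RCOR scaffold joins HDAC1 or HDAC2 to the histone demethylase LSD1, held the largest change of all 42 genes. Rcor2 was at 1.36, 0.702 and 1.15 CPM in control and at 15.3, 17.4 and 11.6 CPM in Hdac1/2-deleted mice. The lowest Hdac1/2-deleted mouse stood far above the highest control, and the increase was 13.8-fold (log2 fold change 3.78, standard error 0.31, adjusted p = 4e-05). Over all alternatives the log2 fold change of Rcor2 ranged from 3.43 to 4 and was called in each. Rcor1, the scaffold that dominates in control IEC, was at 48.6, 37.8 and 40.6 CPM in control and at 82.2, 68.2 and 71.7 CPM in Hdac1/2-deleted mice (log2 fold change 0.81, adjusted p = 0.0025), and without C3 and C3-3 it was 0.60 and not called (adjusted p = 0.080). Rcor3 was at 12.1, 9.49 and 11.9 CPM in control and at 11.6, 7 and 11.4 CPM in Hdac1/2-deleted mice, with overlap (log2 fold change -0.16, adjusted p = 0.63).

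Per kb, the 3 scaffold genes together went from 8.61 ± 1.17 to 18.4 ± 1.56 CPM per kb. Rcor2 supplied 3.88% ± 0.816 of this in control and 25.4% ± 4.68 in Hdac1/2-deleted mice, and Rcor1 remained the largest part at 86.6% ± 1.30 and 70.6% ± 3.65. Kdm1a, which encodes LSD1, did not follow the scaffolds (41.3, 34.6 and 34.2 CPM in control and 40.5, 28.3 and 32.8 CPM in Hdac1/2-deleted mice, log2 fold change -0.11, adjusted p = 0.62). Rest, the DNA-binding repressor of neuronal genes that recruits CoREST and Sin3, had a log2 fold change of 0.49 (adjusted p = 0.16), with H5 at 10.6 CPM inside the control range of 9.47 to 12.7 CPM and H1 and H9 at 20.7 and 17.0 CPM. Without H5 it was 0.72 and passed (adjusted p = 0.030).

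Of 10 tested neuronal genes known as REST targets, 3 rose and 2 fell, where 20.5% and 20.3% of all genes did. Celsr3, an atypical cadherin of axon guidance, was at 1.09, 0.486 and 0.828 CPM in control and at 20.1, 22.8 and 14.8 CPM in Hdac1/2-deleted mice (log2 fold change 4.58, adjusted p = 2.4e-05). Tubb3, the neuronal tubulin, and Vgf, a neuropeptide precursor, rose as well (log2 fold change 2.81 and 2.22), reaching 2.87 ± 1.36 and 3.45 ± 1.38 CPM. Chrnb2, a nicotinic receptor subunit, fell to 0.916 ± 0.166 CPM (log2 fold change -1.94, adjusted p = 0.00088), and L1cam fell by 0.98 on the log2 scale (adjusted p = 0.0045). Of Chrnb2 exons, 16.3% overlap Adar of the opposite strand.

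MIER proteins recruit HDAC1 and HDAC2 through the same kind of domain as the MTA and RCOR proteins. Mier1 was at 37.3, 32.0 and 30.1 CPM in control and at 19.1, 14.2 and 15.7 CPM in Hdac1/2-deleted mice, a fall of 1.02 on the log2 scale (standard error 0.17, adjusted p = 0.0014). Its relative Mier2, not among the 43 genes, rose from 19.6 ± 1.13 to 55.0 ± 3.44 CPM (log2 fold change 1.49, adjusted p = 5.9e-05). Per kb, Mier2 supplied 45.4% ± 1.39 of MIER RNA in control and 80.1% ± 2.21 in Hdac1/2-deleted mice, and Mier1 27.6% ± 2.98 and 8.58% ± 1.67. Dnttip1, which holds the mitotic deacetylase complex MiDAC together, was at 24.5, 24.0 and 28.5 CPM in control and at 28.4, 22.7 and 29.5 CPM in Hdac1/2-deleted mice, with overlap (log2 fold change 0.07, adjusted p = 0.77). Of its exons, 10.7% overlap Gm11457 of the opposite strand.

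Both NCoR genes among the 43 fell, against 20.3% of all genes tested. Ncor1, the scaffold that activates HDAC3 and serves nuclear receptors, was at 350, 378 and 288 CPM in control and at 156, 179 and 168 CPM in Hdac1/2-deleted mice (log2 fold change -1.01, standard error 0.15, adjusted p = 0.00095). Tbl1xr1, which exchanges corepressors for coactivators on the complex, was at 51.9, 45.2 and 40.0 CPM in control and at 24.7, 23.1 and 22.6 CPM in Hdac1/2-deleted mice (log2 fold change -0.96, standard error 0.15, adjusted p = 0.00095). In both genes every Hdac1/2-deleted mouse stood below every control mouse, and both calls held under each alternative. Other genes of the complex were not called. Tbl1x, the relative of Tbl1xr1, had a log2 fold change of -0.03 (adjusted p = 0.88). Gps2 had -0.15 (adjusted p = 0.37), and Hdac3 is given above.

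The balance between paralogs was measured within each mouse as the difference of log2 CPM, a value that does not depend on how libraries are scaled. Gene length is not part of this value, so its shift between groups is read and not which paralog is more abundant. Of 17 pairs, 12 did not overlap between control and Hdac1/2-deleted mice. Among single genes tested, 26.7% lay apart as higher and 26.6% as lower. The share for pairs of other genes was not computed, so the count of 12 is not read as particular to paralogs. For each of these the exact permutation test gave p = 0.10, the smallest that 3 against 3 mice allow, and 0.14 adjusted over the 17 pairs, so that no pair could pass 0.05. The difference Rcor1 minus Rcor2 was 5.13, 5.68 and 5.10 in control and 2.42, 1.97 and 2.62 in Hdac1/2-deleted mice, a shift of -2.97. This difference was smaller in each Hdac1/2-deleted mouse than in any control mouse. Rbbp4 minus Rbbp7 went from 0.09 ± 0.10 to -1.07 ± 0.13, and Rcor1 minus Rcor3 from 1.92 ± 0.13 to 2.92 ± 0.32. Among the deacetylases, Hdac6 minus Hdac10 went from -0.53 ± 0.09 to 0.88 ± 0.15 and Hdac4 minus Hdac5 from -1.30 ± 0.16 to -0.29 ± 0.12.

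**Figure D4:**
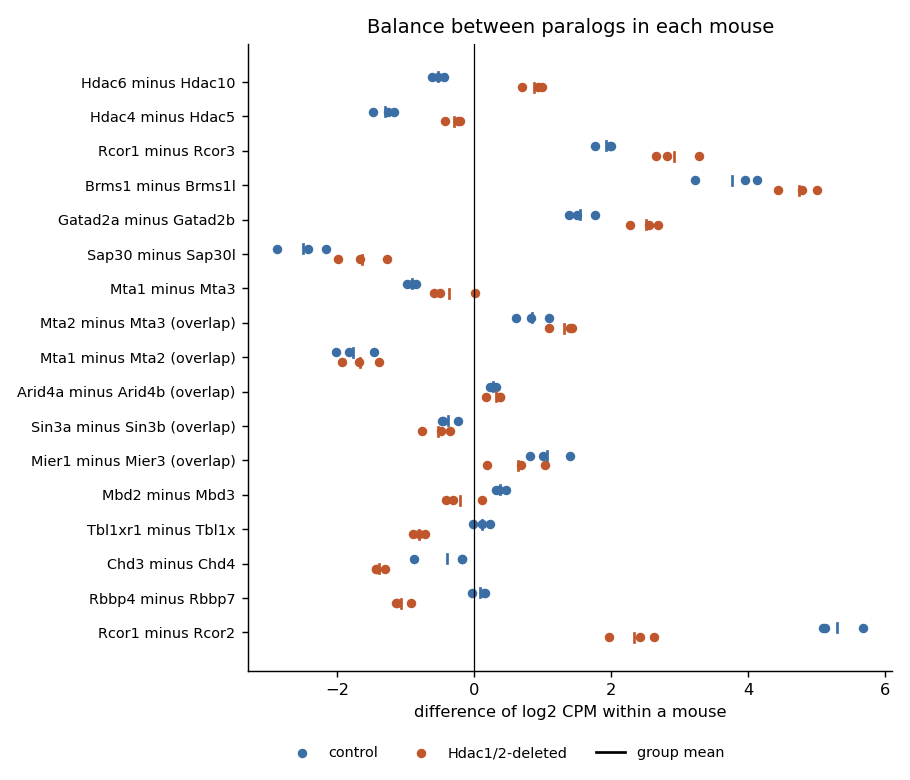
Difference of log2 CPM between the genes of 17 paralog pairs in each mouse, with group means as ticks and pairs ordered by the shift between groups. The shift runs from -2.97 for Rcor1 minus Rcor2 to 1.41 for Hdac6 minus Hdac10, and the 5 pairs marked overlap, Sin3a minus Sin3b among them, have mice of both groups in the same range.

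In the other 7 pairs without overlap the shift was under 1 in size, between -0.98 for Chd3 minus Chd4 and 0.97 for Brms1 minus Brms1l. Chd4 supplied 58.1% ± 6.67 of the RNA of both ATPases per kb in control and 73.3% ± 1.02 in Hdac1/2-deleted mice. Gatad2a supplied 85.7% ± 1.58 and 92.1% ± 1.08 of its pair. Sin3a minus Sin3b, Arid4a minus Arid4b and Mta1 minus Mta2 shifted by -0.14, 0.05 and 0.10 with overlap.

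Of 30 further subunits of the same complexes that were tested, 9 were higher and 3 lower, against 20.5% and 20.3% of all genes. Besides Mier2, at least 2-fold increases were found in Phf21b (1.31 on the log2 scale, adjusted p = 0.0020) and Ing1 (1.11, adjusted p = 0.00028), the latter a Sin3 subunit that reads histone methylation and was at 17.0 ± 0.448 CPM in control and 36.6 ± 1.84 CPM in Hdac1/2-deleted mice. Decreases of that size were found in Chd5 (-1.90, adjusted p = 0.012), a NuRD ATPase at 1.04 ± 0.475 CPM in control IEC, and Phf21a (-1.12, adjusted p = 0.00099), the CoREST subunit that reads unmethylated histone tails. Without C3 and C3-3, neither Chd5 (-1.06, adjusted p = 0.29) nor Phf21b was called (1.25, adjusted p = 0.050 after rounding).

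The plot of the called genes under other settings shows how far the directions rest on the scaling and on the control mice. With library totals in place of TMM, the log2 fold changes of all 42 genes moved up, as did the median over all genes (by 0.188), and 15 of the 42 genes rose and 10 fell, while 25.8% of all genes rose and 14.7% fell. Without C1 and C3, 8 genes rose and 8 fell, and without C3 and C3-3 also 8 and 8, where all genes gave 12.6% and 11.7%, and 11.7% and 11.8%. Of the 22 called genes, 13 kept their call at the limit of 0.05 under each alternative and none of the 22 changed sign. The part of smooth muscle, T cell and B cell transcripts in the values of single genes was not tested beyond this.

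**Figure D5:**
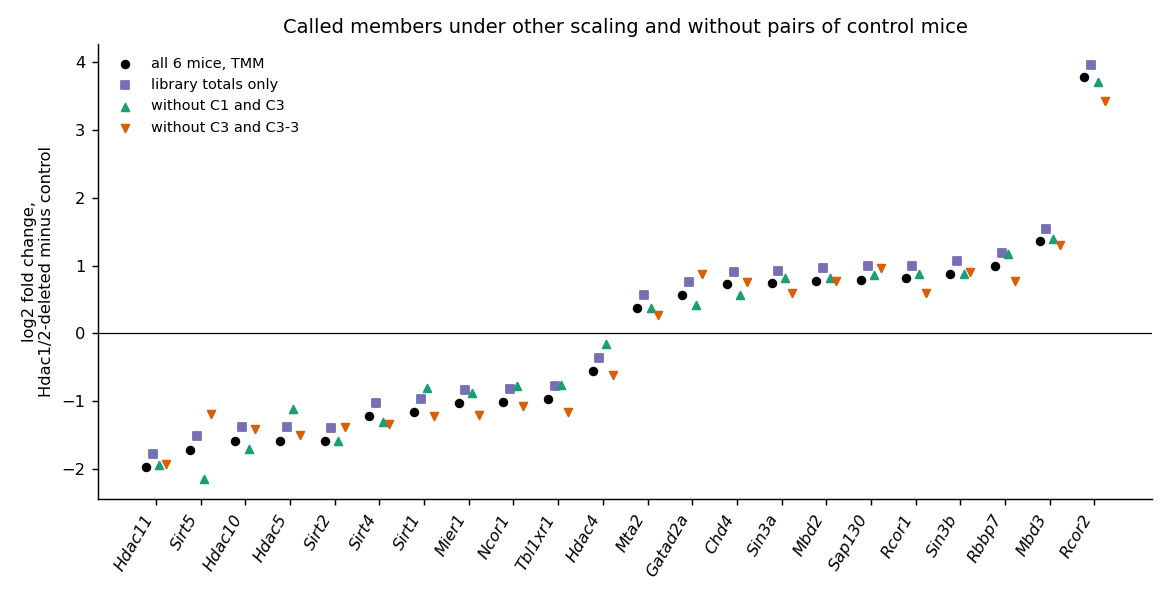
Log2 fold change of the 22 called genes with all 6 mice, with library totals as the scale, and without each pair of control mice, ordered by the value with all 6 mice. The sign is the same under each of the 4 settings, and Hdac4 comes closest to 0 at -0.16 without C1 and C3.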

How the data were processed

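RNA-Seq libraries were made from poly(A) RNA with a directional kit, 1 per mouse, from 3 control and 3 Hdac1/2-deleted mice. Reads were converted with bcl2fastq 1.8.4 and aligned with STAR 2.4.0f1, per the submitters' processing notes. These notes name mm9 while the study's methods name GRCm38, and the table holds gene identifiers without positions. The program and annotation used for counting are not given in the sources used here. The authors deposited raw counts per gene, which were used here. The 6 columns of scaled values, 1 per sample, and the authors' own log2 fold changes, mean expression and p-values of their comparison were not used.

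Counts were filtered with filterByExpr (15618 of 19616 genes kept), normalized with TMM (factors 0.892 to 1.14) and fitted with edgeR 4.0.16 in R 4.3.3 by the robust quasi-likelihood test without covariates. Adjusted p-values are those of Benjamini and Hochberg across the whole tested table, called at 0.05, with 2-fold as the second limit. The standard error is the size of the log2 fold change divided by the square root of F. With 1 library per mouse the test measures the spread between mice. Totals of 36111035 to 65902344 counts set the precision, and H5 had the smallest. Paralog differences used log2 CPM with a prior count of 2 and an exact, 2-sided permutation test. Exon lengths and overlaps came from a GENCODE annotation of GRCm38, and promoters from RefSeq. The scripts were tested on simulated data.

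The genes described and the lists of other genes were chosen with earlier results of these data known. Values of each mouse are given for called genes that changed at least 1.5-fold, for the most abundant gene per kb of each complex and for paralog pairs without overlap that shifted by at least 1. Of the NAD genes, REST targets, further subunits and acetyltransferases, called genes that changed at least 2-fold are named, up to 5 per list. The class I enzymes are named in full. Cell type markers are given as sums or counts with only some genes named, so genes called at that size are left unnamed among them. Myeloid, endothelial and proliferation markers are not described. Mef2a, Mef2c, Nampt, Tbl1x, Gps2 and L1cam were added after their values had been seen. Alternatives were library totals, RLE factors, DESeq2 1.42.0, limma-voom (limma 3.58.1), the fit without the robust option, no filter, at least 10 counts in every sample, an adjusted p of 0.01, and each mouse left out in turn. The fits without both C1 and C3 and without both C3 and C3-3 were added after seeing the data. They leave 1 control mouse, which is assumed to vary like the other mice. Proteome, microscopy and drug treatments of the study were not analysed here, and 1 further subunit is not reported here.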

Additional observations from a re-analysis of the deposited data

How the results depend on the processing

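Of the 22 called genes, 19 kept their call at the limit of 0.05 under each alternative that leaves out at most 1 mouse, the exceptions being Hdac4, Mta2 and Gatad2a. Leaving out single mice gave 10 to 12 rising and 10 to 11 falling genes. At an adjusted p of 0.01, 9 rose and 9 fell, and Hdac4, Sirt4, Mta2 and Gatad2a were not called. The number of genes at least 2-fold lower was 5 instead of 9 without C1 and C3 and 7 to 10 without single mice. The median log2 fold change was 0.18 with library totals and 0.07 without a filter on low counts, in place of -0.01. Library totals also moved the share of higher genes among all calls from 50.2% to 63.6%. Log2 fold changes that changed sign belonged to genes that were not called. With library totals these were Hdac6 (0.04), Mta3 (0.11), Rbbp4 (0.03), Rcor3 (0.03), Kdm1a (0.08), Hdac2 (0.01), Hdac3 (0.01) and Tbl1x (0.16). Without C3 and C3-3 they were Hdac7 (0.00), Hdac6 (0.02), Mta3 (0.06) and Mef2c (0.03), and without C1 and C3 they were Chd3 (0.04), Dnttip1 (-0.07), Mef2a (-0.03) and Tbl1x (0.04). Without single mice, Rbbp4 ranged from -0.28 to 0.01, Rcor3 from -0.27 to 0.05, Kdm1a from -0.26 to 0.00, Mef2a from -0.06 to 0.11, Mef2c from -0.9 to 0.05 and Tbl1x from -0.06 to 0.03. The causes were not tested. Of the 17 paralog pairs, 12 to 15 were without overlap with a prior count of 0.5, with library totals and without single mice. Leaving out a mouse cannot make groups that lie apart overlap. In those fits the count could therefore not fall below 12, and they do not check it. No paired analysis was possible because the groups share fewer than 2 mouse numbers. Hdac9, with 0 to 10 counts per library, could not be tested.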

Other observations

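Histone acetyltransferases are the enzymes opposed to the deacetylases. Of 14 tested genes, 2 were higher and 4 lower, against 20.5% and 20.3% of all genes. Kat2a and Kat2b, which encode the paralogous acetyltransferases GCN5 and PCAF of the SAGA and ATAC complexes, moved apart. Kat2a was at 18, 10.9 and 11.8 CPM in control and at 37.8, 52.3 and 35.3 CPM in Hdac1/2-deleted mice (log2 fold change 1.62, standard error 0.24, adjusted p = 0.00080). Kat2b was at 37.7, 31.6 and 32.3 CPM in control and at 12.7, 8.03 and 9.35 CPM in Hdac1/2-deleted mice (log2 fold change -1.75, standard error 0.20, adjusted p = 0.00021). In each gene the groups did not overlap. Ncoa1, a nuclear receptor coactivator that binds acetyltransferases, rose by 1.94-fold (adjusted p = 0.0010), and Crebbp, which encodes CBP, fell from 41.9 ± 4.32 to 23.7 ± 1.90 CPM (log2 fold change -0.83, adjusted p = 0.0019). Crebbp was not called without C1 and C3 (-0.69, adjusted p = 0.054). Naa60 and Kat6a fell as well, with log2 fold changes of -0.79 and -0.43, and the call of Kat6a was lost under 7 of 15 alternatives, among them the fits without C1 and C3 (-0.26, adjusted p = 0.43) and without C3 and C3-3 (-0.61, adjusted p = 0.058). Ncoa1, Crebbp, Naa60 and Kat6a were named after their values had been seen.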
